A study of Homo sapiens with 4 samples.

Results

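ELF3 and 9 other genes of the ETS family of transcription factors were followed in TGF-β1-treated and control HK-2 cells. HK-2 is an established human epithelial line derived from the proximal tubule and made immortal by oncogenes of a papillomavirus, and TGF-β1 is a cytokine known for driving fibrosis. The 10 genes were taken by symbol from a table of 25609 genes and are ELF3, EHF, ELF1, ELF4, ETS1, ETS2, ETV1, ETV4, ETV5 and ERF. They were chosen by RPKM values in this table, with their TGF-β1 to control difference already seen, so that difference is given for them as a description, with no p-value. The human genome holds 28 ETS genes by the list used here, and the 18 outside the 10 serve as the comparison. The 2 TGF-β1 libraries came from wild-type HK-2 cells given 20 ng/mL of the cytokine over 24 h, following serum starvation of 24 h. The 2 control libraries came from wild-type HK-2 cells labelled as controls. The same protocol text is attached to every sample and includes 4-thiouridine (100 μM, final 20 h), a uridine analogue that cells build into newly made RNA. The controls were therefore taken to have had all steps but TGF-β1.

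ETS factors share a winged-helix DNA-binding domain that recognises a GGAA core. Most activate transcription, and several are switched on by phosphorylation through the ERK pathway, whereas a few, such as ERF, are repressors. ELF3 and EHF belong to the epithelium-specific ETS group. ETS1 and ETS2 are known for driving genes of invasion and matrix turnover, and ETV1, ETV4 and ETV5 form the PEA3 group. Of these, ETV4 and ETV5 act downstream of receptor tyrosine kinases in kidney branching.

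Levels are RPKM, read counts set against exon length and library size, as scaled by the authors. Whole reads were recovered from these values and summed to 4602912 and 5408895 in TGF-β1 replicates 1 and 2 and to 3318085 and 4774729 in control replicates 1 and 2. Nothing in the labels says that replicates are separate cultures, and any p-value therefore reflects the scatter among these 4 libraries alone, which may be technical. Of 9 general markers of tubule epithelium all had reads, among them KRT8, KRT18, EPCAM and PAX8 with at least 269 reads in every library. PAX2 had the fewest, 6 and 8 with TGF-β1 and 5 and 13 in controls, and did not pass the filter on low values. Markers of the differentiated proximal tubule were mostly at or near 0: CUBN and SLC34A1 had at most 2 reads in any library, and of 9 analysed only GGT1 and DPP4 passed the filter on low values. Leukocyte markers summed to 0.355 and 0.625 RPKM over 4 genes in the TGF-β1 libraries and to 0.757 and 0.801 RPKM in the controls. The endothelial markers CDH5 and VWF and the fibroblast collagen COL1A2 had 0 reads throughout. LUM, a matrix proteoglycan gene on the fibroblast list, was present at 8.76 and 6.74 RPKM in TGF-β1 libraries and 12.1 and 12.9 RPKM in controls. In bulk RNA, fewer cells that express a gene and less RNA per cell cannot be told apart.

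The sequences before the starts of those of the 10 genes whose levels lay furthest apart are shown. ETS factors bind GGAA, and SMAD, SNAI and ZEB factors act downstream of TGF-β1. Promoter sequences (RefSeq, GRCh38.p14, 250 bases before 1 annotated start per gene) were matched by symbol for 7 of the 10 genes: ELF3, EHF, ELF1, ELF4, ETS2, ETV1 and ERF. The motifs searched on both strands were the ETS core GGAA, the longer ETS site CCGGAA, which contains that core, the SMAD box CAGAC, the E-box CACCTG bound by SNAI and ZEB repressors, and the AP-1 site TGANTCA. The window of ELF3 (chromosome 1, plus strand) overlaps the annotated first exon of a longer ELF3 transcript in GENCODE 29, so only 30 bases around each match are given, with the match in capitals.
ELF3 SMAD box, chr1:202010366-202010395: gggtgcgggatgaCAGACtctgacaatcat
ELF3 ETS core, chr1:202010402-202010431: agccgggcctgatTTCCcagcactgcctgc
ELF3 E-box, chr1:202010455-202010484: gaatatgcaaatCACCTGgggccaggagcc
ELF3 ETS core, chr1:202010486-202010515: agtctaaaggccaGGAAatcccctccatcc

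The windows of ETS2 (plus strand) and ETV1 (minus strand) hold no annotated exon and are given whole, with ETS cores in capitals.
ETS2, chr21:38804933-38805182: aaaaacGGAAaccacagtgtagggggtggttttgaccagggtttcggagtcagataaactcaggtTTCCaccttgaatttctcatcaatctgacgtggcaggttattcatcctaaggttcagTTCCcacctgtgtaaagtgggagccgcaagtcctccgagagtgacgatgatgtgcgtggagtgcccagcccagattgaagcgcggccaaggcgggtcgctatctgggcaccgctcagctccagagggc
ETV1, chr7:13990703-13990952: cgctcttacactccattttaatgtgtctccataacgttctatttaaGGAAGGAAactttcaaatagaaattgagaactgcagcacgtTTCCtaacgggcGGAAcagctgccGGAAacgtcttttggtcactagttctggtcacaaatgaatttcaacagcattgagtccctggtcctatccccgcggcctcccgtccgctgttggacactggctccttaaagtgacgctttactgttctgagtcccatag

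The ELF3 window held 2 ETS cores, starting 172 and 88 bases before the start, 1 SMAD box at 208 and 1 E-box at 120. The ETS2 window held 3 ETS cores and 1 E-box, and the ETV1 window 5 ETS cores, of which 1 was part of CCGGAA. An ETS core was found in 6 of the 7 windows and in 92.8% of 27305 windows of the same length. A SMAD box was found in ELF3 only among the 7, against 37.8% of all windows, and an E-box in ELF3 and ETS2, against 17.5%. No AP-1 site was found in the 7 windows, against 6.6% of all. The matches are a description of these letters. The RefSeq start used for ETS2 lies 124 bases from the start of the gene in GENCODE 29, that of ETV1 723 bases and that of ELF3 2642 bases. Annotated transcripts starting within 50 bases of the RefSeq start number 4 of 10 for ELF3, 0 of 4 for ETS2 and 1 of 23 for ETV1.

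**Figure D1:**
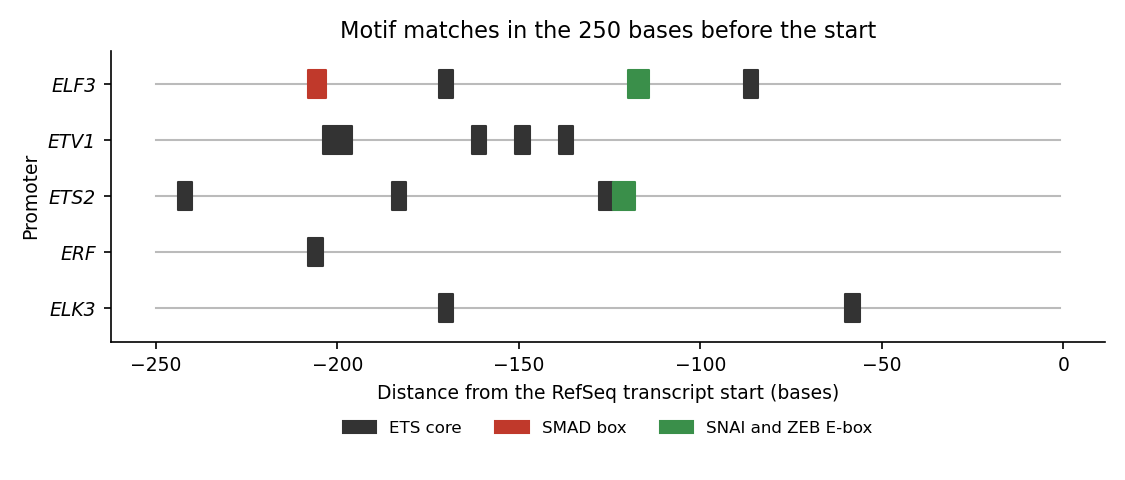
Positions of the ETS core (GGAA), the SMAD box (CAGAC) and the E-box (CACCTG) on either strand in the 250 bases before the RefSeq start of 5 ETS genes, as distance from the start in bases. ETV1 carries 5 ETS cores and ELF3 is the only 1 of the 5 with a SMAD box.

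Among the 10 genes, ELF3 was lower with TGF-β1 and ETS2, ETS1 and ERF were higher. In a limma fit over all 16590 genes with a mean of at least 0.5 RPKM, on log2(RPKM + 0.5), 9 of the 10 could be tested and 4 were called at an adjusted p below 0.05, 3 higher and 1 lower. Of all tested genes 9.12% were called, 6.12% higher and 3.0% lower, and since the genes were listed with this contrast in view, nothing is read from the difference. EHF fell below the filter. Both TGF-β1 libraries lay above both controls for 5 of the 9 and below both for 3, and 29.5% and 24.6% of all tested genes were so placed (54.1% together). The median log2 difference of the 9 was 0.19, against 0.03 over all tested genes. With libraries set to equal totals of recovered reads in place of the authors' scaling, the medians were 0.01 for the 9 and -0.12 for all tested genes, and the calls over all genes were 658 higher and 871 lower, against 1015 higher and 498 lower.

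**Figure D2:**
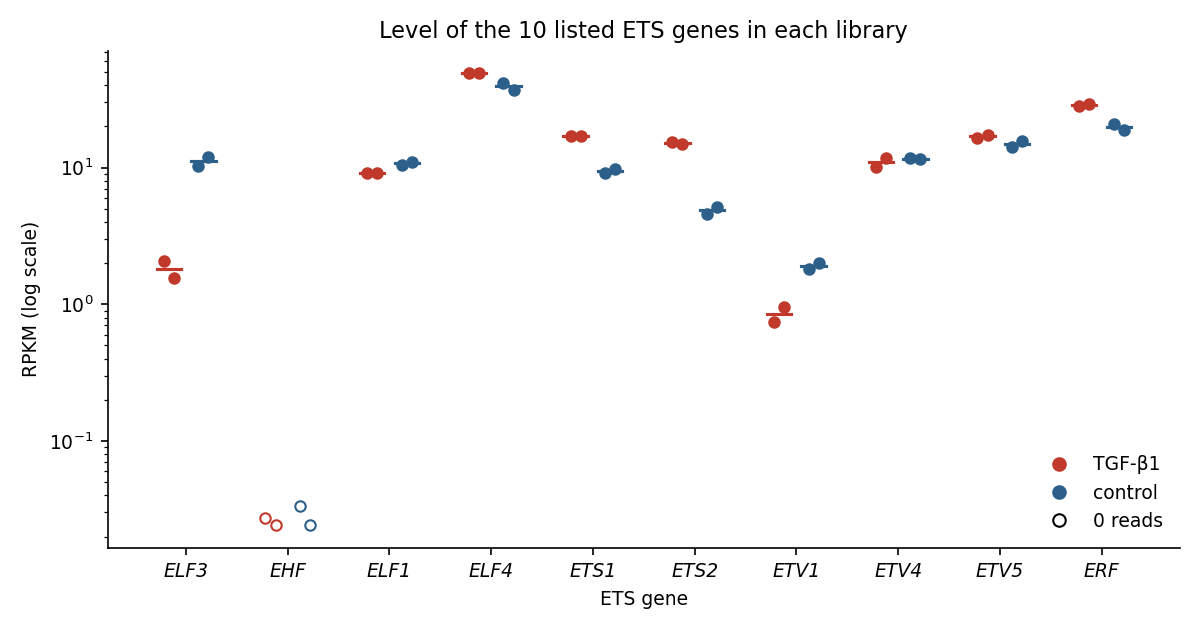
RPKM (log scale) of the 10 listed ETS genes in the 2 TGF-β1 and the 2 control libraries, with a bar at each group mean and open circles for libraries with 0 reads, which the table lists slightly above 0. ELF3 lies at 1.55 to 2.06 RPKM with TGF-β1 and at 10.2 to 12 RPKM in controls, ETS2 at 15 to 15.3 RPKM and 4.59 to 5.12 RPKM.

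ELF3 (ENSG00000163435.15, hg38 chromosome 1, 202007945 to 202017188, plus strand) encodes an epithelial ETS activator. It measured 2.06 and 1.55 RPKM in TGF-β1 libraries, from 61 and 52 reads, and 10.2 and 12 RPKM in controls, from 248 and 406 reads. The groups did not overlap, and the lower control stood well above the higher TGF-β1 library. The means were 1.80 ± 0.36 RPKM with TGF-β1 and 11.1 ± 1.3 RPKM in controls (SD, n = 2 each). The control mean was 6.16 times the TGF-β1 mean, a log2 difference of -2.34 with a 95% confidence interval of -2.79 to -1.89. It had the 4th lowest difference of the 16590 genes and the lowest of the 17 ETS genes tested. The mean level of ELF3 lay above that of 35% of tested genes with TGF-β1 and above that of 77.4% in controls. Its RPKM was set over 7191 bases, the union of all annotated exons. That is 3.52 times the length of the 2044-base coding transcript ELF3-202 and 1.44 times that of the 4994-base coding transcript ELF3-201. Its level per kilobase may thus be understated relative to other genes. The ratio of its mean RPKM between groups is not touched by a fixed length. Its log2 difference, and with it the interval and rank, can shift with length, because a constant was added to RPKM before the log. This difference was -2.57 with a pseudocount of 0.1 RPKM and -2.11 with 1 RPKM, and its value with a shorter length was not tested. The antisense gene ELF3-AS1 shares 664 of the 7191 exon bases of ELF3. AL691482.3, annotated on the same strand as ELF3, also shares 664, and neither gene was analysed here. Over the shared bases (9.23% of the ELF3 exon bases for each gene) reads of ELF3 and its antisense gene cannot be told apart. The sources do not say whether counting used strand. For AL691482.3 strand would not separate the reads on the bases it shares.

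EHF (ENSG00000135373.12, chromosome 11, 34621093 to 34661057), the closest relative of ELF3 on the list, had 0 reads in all 4 libraries. A count of 0 allows up to 3 reads per library, which for this gene corresponds to 0.165 and 0.145 RPKM in TGF-β1 libraries and 0.202 and 0.146 RPKM in controls. These limits cover counting error only. SPDEF, an ETS factor of secretory epithelia, was also close to 0, with 6 and 2 reads with TGF-β1 and 5 and 0 in controls.

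ETS1 (ENSG00000134954.14, chromosome 11, 128458761 to 128587558, minus strand) measured 16.9 and 17 RPKM with TGF-β1 and 9.10 and 9.75 RPKM in controls. Both TGF-β1 values were above both controls, with a group difference of 1.80-fold (log2 0.82, 95% confidence interval 0.59 to 1.04). ETS2 (ENSG00000157557.11, chromosome 21, 38805307 to 38824955, plus strand) measured 15.3 and 15 RPKM with TGF-β1, from 292 and 323 reads, and 4.59 and 5.12 RPKM in controls, from 71 and 110 reads. The means were 15.1 ± 0.26 RPKM with TGF-β1 and 4.85 ± 0.37 RPKM in controls (SD, n = 2 each), without overlap. This was a 3.12-fold difference (log2 1.55, 1.28 to 1.82), the highest difference among the 10 genes. ETS1 was 1.10 and 1.14 times as abundant as ETS2 in the TGF-β1 libraries, against 1.98 and 1.90 times in the controls. ETS1 was no longer called when TGF-β1 replicate 2 was left out or the variance trend dropped, and its log2 difference was 0.65 to 0.86 over all 14 alternatives.

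In the PEA3 group, ETV1 (ENSG00000006468.13, chromosome 7, 13891228 to 13991425, minus strand) was at the low end of the family. It measured 0.738 and 0.961 RPKM with TGF-β1, from 29 and 43 reads, and 1.82 and 2.02 RPKM in controls, from 59 and 91 reads. The groups did not overlap, yet the gene was not called (log2 -0.85, 95% confidence interval -1.43 to -0.27). With a pseudocount of 0.1 RPKM the log2 difference was -1.10, and with 1 RPKM it was -0.66. ETV4 (ENSG00000175832.12, chromosome 17, 43527844 to 43579620) measured 10.1 and 11.8 RPKM with TGF-β1 and 11.7 and 11.5 RPKM in controls. Its TGF-β1 values enclosed the control values, and the interval of the log2 difference ran from -0.37 to 0.19. ETV5 (ENSG00000244405.7, chromosome 3, 186046308 to 186110318) measured 16.5 and 17.4 RPKM with TGF-β1 and 14.1 and 15.6 RPKM in controls. It was not called (log2 0.19, -0.05 to 0.42), and scaling by total reads brought its difference to 0.01. Relative to each other, ETV1 stood at 0.0448 and 0.0553 times the level of ETV5 with TGF-β1 and at 0.129 and 0.130 times in controls.

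ERF (ENSG00000105722.9, chromosome 19, 42247572 to 42255157), an ETS repressor that ERK expels from the nucleus, measured 28 and 29 RPKM with TGF-β1 and 20.7 and 18.8 RPKM in controls. The groups were apart by 1.44-fold (log2 0.52, 95% confidence interval 0.31 to 0.73). Its call was lost in 6 of 14 alternatives: with scaling by total reads (log2 0.34), with quantile normalisation (0.39), without the variance trend, and without control replicate 2, TGF-β1 replicate 1 or TGF-β1 replicate 2. ELF4 (ENSG00000102034.16, chromosome X, 130064874 to 130110716), an activator with roles in lymphocytes, was the most abundant of the 10 at 48.8 and 48.9 RPKM with TGF-β1 and 41.4 and 37.0 RPKM in controls. Its log2 difference of 0.32 (0.12 to 0.52) was not called and was 0.14 with scaling by total reads. ELF1 (ENSG00000120690.15, chromosome 13, 40932028 to 41061440), a related activator, measured 9.13 and 9.09 RPKM with TGF-β1 and 10.5 and 11 RPKM in controls, lower in both TGF-β1 libraries but not called (log2 -0.23, -0.46 to 0.01).

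Of the 18 ETS genes outside the 10, 14 were analysed and 8 passed the filter. ELK3 rose with TGF-β1, and the other 7 were not called, so that 12.5% were called, against 9.12% of all tested genes. The median log2 difference of the 8 was -0.02, against 0.03 over all tested genes. ELK3 (ENSG00000111145.7, chromosome 12, 96194382 to 96269835) encodes a ternary complex factor that works with SRF. It measured 22.3 and 24.8 RPKM with TGF-β1 and 5.04 and 5.56 RPKM in controls, with means of 23.5 ± 1.8 and 5.30 ± 0.37 RPKM (SD, n = 2 each). This was a 4.44-fold rise (log2 2.05, 95% confidence interval 1.78 to 2.32, adjusted p = 0.00202, limma). It was called in all 14 alternatives, with a log2 difference of 1.88 to 2.13. Its group members were not called: ELK1 had a log2 difference of 0.15 (-0.02 to 0.32, adjusted p = 0.261) and ELK4 one of -0.36 (-0.70 to -0.02, adjusted p = 0.175). The remaining tested genes were ELF2 (log2 -0.21), ETV3 (0.15), ETV6 (0.40), GABPA (-0.34) and ETV2 (-0.19), with adjusted p-values of 0.228 to 0.807 (limma). The factors of blood and endothelium were at or near 0: FLI1 had 0 reads in all libraries, SPI1 at most 1 and ERG at most 5. SPIB had 5 to 8 reads, ETV7 1 or 2, and ELF5, ETV3L, FEV and SPIC were not analysed here.

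**Figure D3:**
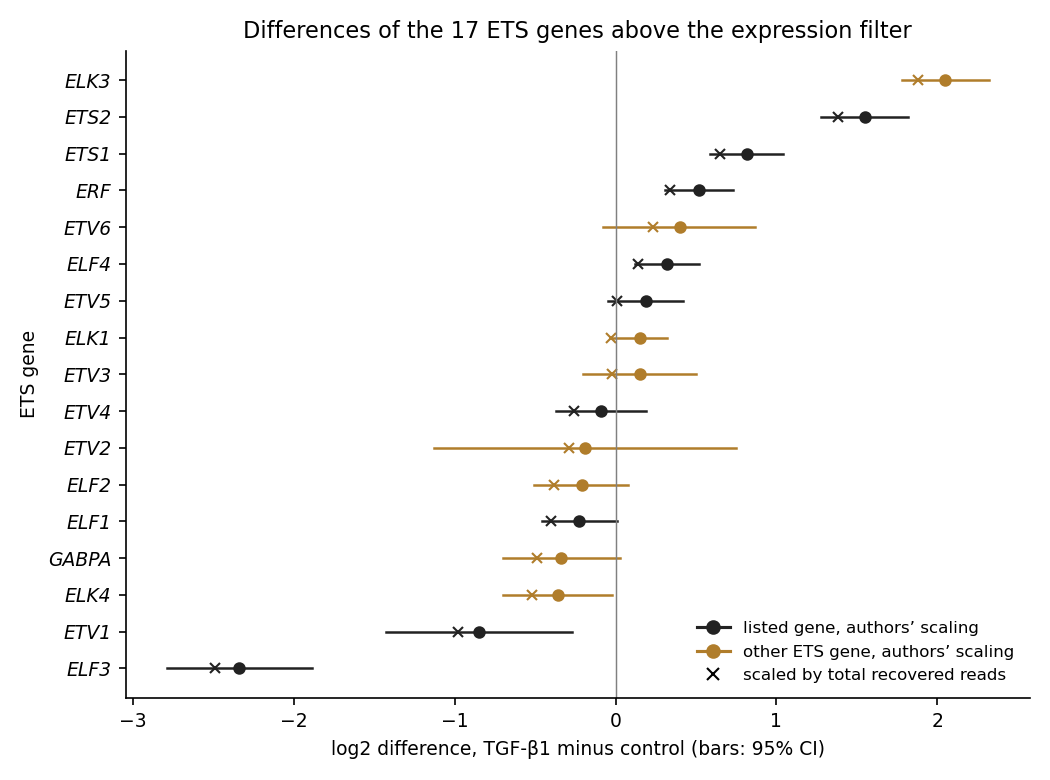
Log2 difference between TGF-β1 and control libraries for the 17 ETS genes above the filter, with 95% confidence intervals from limma for the authors' scaling (dots) and crosses for scaling by total recovered reads. ELK3, ETS2 and ETS1 lie highest and ELF3 lowest, and every cross lies to the left of its dot.

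By level, ELK1, ELF4 and ERF led the family in both groups, in that order, and their ranges over libraries did not overlap. In TGF-β1 libraries ELK3 came 4th at a mean of 23.5 RPKM. ETS1 (17 RPKM) and ETV5 (16.9 RPKM) followed with overlapping ranges, then ETS2 (15.1), ETV4 (11) and ELF1 (9.11). ELF3 came 15th at 1.80 RPKM, below GABPA and above ETV1 without overlap. In controls ETV5 was 4th at 14.8 RPKM, followed by ETV4 (11.6) and ELF1 (10.7), whose ranges did not overlap. ELF3 (11.1) could not be ordered against either, since its range of 10.2 to 12 RPKM overlapped both. ETS1 was 8th at 9.42 RPKM. ETS2, at 4.85 RPKM, lay in a run from ELF2 to GABPA in which each gene's range overlapped that of the next. The level of ELF3 was 0.134 and 0.104 times that of ETS2 in TGF-β1 libraries and 2.22 and 2.35 times in controls.

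Summed over the 24 ETS genes analysed, RPKM came to 253 and 264 with TGF-β1 and to 210 in each control. ETS1 and ETS2 together held 12.7% and 12.1% of this sum in TGF-β1 libraries and 6.52% and 7.08% in controls. The ternary complex group held 32.7% and 33.9% with TGF-β1 and 29.6% and 30.7% in controls, within which the share of ELK3 was 8.82% and 9.40% with TGF-β1 and 2.40% and 2.65% in controls. The PEA3 group held 10.8% and 11.4% with TGF-β1, and 13.2% and 13.9% in controls. ELF3 held 0.814% and 0.588% with TGF-β1 and 4.86% and 5.73% in controls. Shares do not depend on how libraries are scaled to each other, but each rests on the exon length used for its gene.

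**Figure D4:**
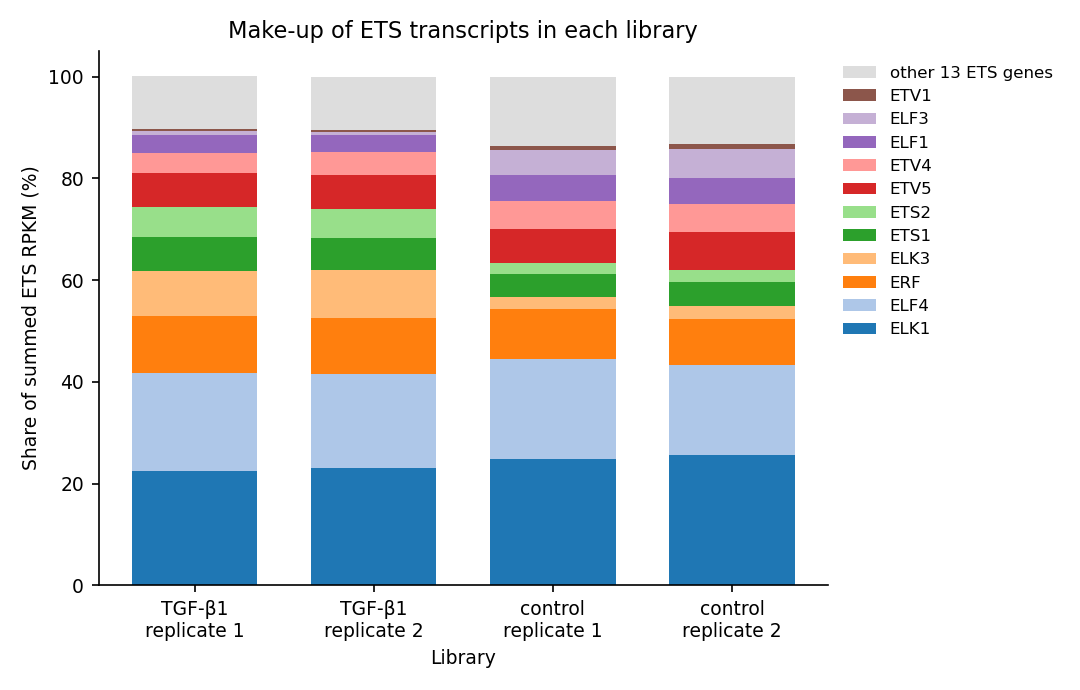
Share of the summed RPKM of 24 ETS genes held by each of 11 genes and by the other 13 together, in percent, in the 2 TGF-β1 and the 2 control libraries. The ELF3 band is 0.588% to 0.814% of the sum with TGF-β1 and 4.86% to 5.73% in controls, and the ETS2 and ELK3 bands are wider with TGF-β1.

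Partners and regulators of ETS proteins had a share of called genes near that of all tested genes. Of 20 listed genes 19 were tested, 2 rose and 0 fell, or 10.5% called, against 9.12% of all tested genes. The median log2 difference was 0.10, against 0.03. This list was written with earlier results of these data known. SRF, the partner of the ternary complex factors, measured 34.4 and 33.9 RPKM with TGF-β1 and 19.7 and 16.8 RPKM in controls (log2 0.89, 95% confidence interval 0.64 to 1.14, adjusted p = 0.00988, limma). SRF was called in 13 of 14 alternatives, and not when the variance trend was dropped (adjusted p = 0.0659). RUNX1, a DNA-binding partner of ETS1, measured 7.58 and 7.64 RPKM with TGF-β1 and 4.71 and 3.63 RPKM in controls (log2 0.81, 0.41 to 1.21, adjusted p = 0.0413). RUNX1 was no longer called in 10 of 14 alternatives. Leaving out control replicate 2 gave an adjusted p of 0.0744, TGF-β1 replicate 1 one of 0.132 and TGF-β1 replicate 2 one of 0.150. RPS6KA1 was lower in both TGF-β1 libraries than in both controls without being called (log2 -0.45, -0.79 to -0.12, adjusted p = 0.108, limma). It was called lower with scaling by total reads (log2 -0.62). MAPK3, which encodes an ERK kinase, had a log2 difference of -0.15, and CIC, which represses the PEA3 genes, one of -0.08. COP1, a ubiquitin ligase of PEA3 factors, had one of 0.32 (-0.12 to 0.76, adjusted p = 0.340).

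Among transcription and splicing factors that act beside ELF3 in epithelia, 0 rose and 3 fell. Of 15 listed genes 13 were analysed and 8 tested, so 37.5% were called, against 9.12% of all tested genes, of which 3.0% were lower. The median log2 difference was -0.91, against 0.03 over all tested genes, and both TGF-β1 libraries lay above both controls for 1 of the 8 and below both for 7. The list was drawn up with earlier results of these data known, so nothing is read from its distance to all tested genes. KLF5, a zinc-finger factor of epithelia, fell to 4.11 and 4.45 RPKM with TGF-β1, against 9.43 and 10.3 RPKM in controls (log2 -1.12, 95% confidence interval -1.42 to -0.81, adjusted p = 0.00947, limma). ESRP2, which directs epithelial splicing, fell to 2.14 and 1.85 RPKM, against 4.96 and 6.02 RPKM in controls (log2 -1.26, -1.71 to -0.81, adjusted p = 0.0187). ESRP2 was not called with control replicate 2 left out (adjusted p = 0.0613) or with TGF-β1 replicate 2 left out (0.0686). PAX8 was the other gene that fell (log2 -1.50). The 9 general tubule markers summed to 429 and 470 RPKM with TGF-β1 and 377 and 410 RPKM in controls. Within these sums KRT8 alone stood at 167 and 183 RPKM with TGF-β1 and 71.9 and 80.6 RPKM in controls. Of the 8 tested, 3 were called higher: KRT8, LHX1 and KRT18 (KRT18 not with scaling by total reads). Another 3 were called lower, KRT19 (log2 -1.52), EPCAM and PAX8, and the median log2 difference of the 8 was -0.23. The part of cell make-up in the lower ELF3 and in these falls was not tested. FOXA1 (log2 -0.71, adjusted p = 0.0718) was lower in both TGF-β1 libraries than in both controls without being called. KLF4, a zinc-finger factor of differentiated epithelia, was the 1 gene above both controls, at 1.41 and 1.25 RPKM with TGF-β1 and 0.443 and 1.13 RPKM in controls, and was not called (log2 0.56, adjusted p = 0.393). GRHL1, GRHL3, TFAP2C, TP63 and ESRP1 were below the filter, and GRHL2 and OVOL1 were not analysed here.

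Genes described elsewhere as ETS targets moved in both directions. Of 30 listed genes 29 were analysed and 21 tested, 6 rose and 4 fell. Thus 47.6% were called, against 9.12% of all tested genes (6.12% higher and 3.0% lower), with a median log2 difference of 0.30, against 0.03. Because these targets were listed with earlier results of these data known, nothing is read from that gap. When the variance trend was dropped, 3 of the 10 were still called. The targets ascribed to ETS1, ETS2 and the PEA3 group made up 18 of those tested, 6 higher and 3 lower. CCND1, the cyclin D1 gene, measured 13.6 and 13.4 RPKM with TGF-β1 and 2.96 and 3.37 RPKM in controls (log2 1.93, 95% confidence interval 1.63 to 2.24, adjusted p = 0.00280, limma). It was called in all 14 alternatives. CDKN2A, which encodes cell cycle inhibitors, measured 151 and 150 RPKM with TGF-β1 and 87.4 and 90.1 RPKM in controls (log2 0.76, adjusted p = 0.00369). MMP14, a membrane-bound matrix protease, had 87.5 and 93.8 RPKM with TGF-β1 and 53.9 and 53.5 RPKM in controls (log2 0.75, adjusted p = 0.00550). MMP13, a collagenase gene, was also called higher and rested on 24 and 39 reads with TGF-β1 and 1 and 4 in controls (log2 2.01). Its control mean of 0.247 RPKM was below the filter, which it passed through its TGF-β1 level, so no p-value is given. The log2 difference of MMP13 was 2.95 with a pseudocount of 0.1 RPKM and 1.49 with 1 RPKM. Its call was lost without TGF-β1 replicate 2 (log2 1.80). MMP1, another collagenase gene (log2 1.86, adjusted p = 0.0208), and PTHLH, which encodes a parathyroid hormone-like peptide (1.98, adjusted p = 0.0234), were the other 2 that rose. PTHLH was not called with TGF-β1 replicate 1 left out (adjusted p = 0.0657) or TGF-β1 replicate 2 (0.0760), and MMP1 was just short of a call with TGF-β1 replicate 2 left out.

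BCL2L1, which encodes the survival factor BCL-XL, fell to 64.5 and 69.6 RPKM with TGF-β1, against 140 and 138 RPKM in controls (log2 -1.05, 95% confidence interval -1.21 to -0.88, adjusted p = 0.00280, limma). PHLDA1 (log2 -0.62, adjusted p = 0.0203) and HPSE, the heparanase gene (-0.88, adjusted p = 0.0392), also fell. PHLDA1 was not called with TGF-β1 replicate 1 left out (adjusted p = 0.0564) or TGF-β1 replicate 2 (0.0784). HPSE was not called whichever library was left out (adjusted p = 0.0835 to 0.159). Of the genes ascribed to ELF3 and EHF in other cells, 9 were analysed and 3 tested. TGFBR2, the type II TGF-β receptor gene, was the 1 that fell, with 7.34 and 7.65 RPKM with TGF-β1 and 12.2 and 11.6 RPKM in controls (log2 -0.63, adjusted p = 0.0235). Its call was lost whichever library was left out (adjusted p = 0.0511 to 0.101). ERBB2 (log2 0.30, adjusted p = 0.267) and CDH1 (-0.59, adjusted p = 0.251) were not called. CLDN7 and ANGPT1 had 0 reads in every library.

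**Figure D5:**
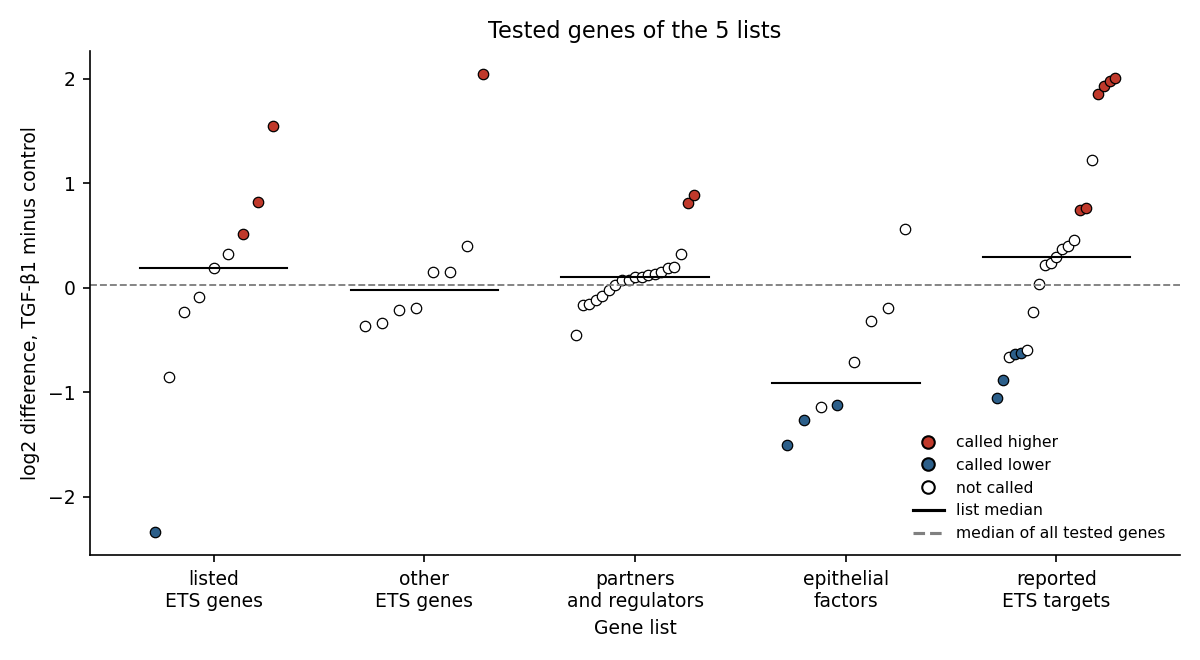
Log2 difference of each tested gene in the 5 lists, filled where called in the limma fit over all genes, with a solid bar at each list's median and a dashed line at the median of all tested genes. The epithelial factor list has a median of -0.91 and holds 3 genes called lower, and the target list has 6 called higher and 4 called lower.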

How the data were processed

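RNA was sequenced from 4 HK-2 samples, grouped and numbered by their titles. The authors deposited RPKM values per gene with versioned Ensembl identifiers, used as deposited. Without giving roles, the submitters' processing notes list hg38, DESeq2, STAR 2.7.1a and bcl2fastq 2.20.0.422. No source used here gives the counting tool, its strand setting or the annotation release. Symbols came from a gene name table (25312 of 25609 identifiers matched), and coordinates and exon lengths from GENCODE 29 on hg38. Values times exon length fell on whole reads plus 0.5 (tolerance 0.01 read) for 100% of the 23853 identifiers of the same version. For other versions the length was inferred from the values, and reads were recovered for 25503 genes.

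Genes with a mean of at least 0.5 RPKM were fitted with limma 3.58.1 in R 4.3.3 (variance trend) on log2(RPKM + 0.5), with Benjamini-Hochberg adjustment over 16590 genes. Fold values are ratios of group means of RPKM, and log2 differences understate changes of low genes. The alternatives were other pseudocounts, filters and scalings, no variance trend, a block for the replicate number and leaving out each library. The 10 genes and all lists were chosen with earlier results of these data known. Every ETS gene is described. In the other lists the text names up to 4 called genes with the smallest p in each direction, and other genes named complete a count, carry a background role or were chosen after their values were seen. Values of some listed genes are not reported here.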

Additional observations from a re-analysis of the deposited data

How the results depend on the processing

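The log2 differences of ELF3 (-2.57 to -2.11), ETS2 (1.38 to 1.62) and ELK3 (1.88 to 2.13) kept their sign in all 14 alternatives. ELF3 and ETS2 were listed with this contrast in view, so their ranges are a description only. The count of called genes among the 10 listed, 4 in the fit reported, ranged from 2 to 4 with 1 library left out and was 2 without the variance trend. The count among the other ETS genes was 1 in all 14 alternatives. The count of partners and regulators, 2 in the fit reported, ranged from 1 to 2 with 1 library left out. It was 1 without the filter on low values, with the replicate block, and with quantile, median-of-ratios and upper-quartile scaling, and 0 without the variance trend. With scaling by total reads it was 2, 1 higher and 1 lower. The epithelial factor count, 3 in the fit reported, was 5 with scaling by total reads and ranged from 2 to 3 with 1 library left out. The target count, 10 in the fit reported, ranged from 4 to 10 with 1 library left out and was 3 without the variance trend. Without that trend 424 of all genes were called, against 1513 with it. Of the 17 ETS genes tested, 4 that were not called changed sign: ETV4 without TGF-β1 replicate 1 (0.02; -0.19 to 0.02 with 1 library left out), ELK1 with quantile normalisation (-0.07) and with total-read scaling (-0.03), ETV3 with total-read scaling (-0.02), and ETV2 without control replicate 1 (0.15) and without TGF-β1 replicate 1 (0.05; -0.54 to 0.15 with 1 library left out). The cause of these shifts was not tested. The replicate numbers are shared between groups, but deviations from the group means correlated at 0.03 over genes, so the numbers were not taken to pair samples. With the replicate block 4 of the 10 listed genes, 4 epithelial factors and 10 targets were called. ETV1 rested on 29 to 91 reads per library and MMP13 on 1 to 39, and whether depth limits their calls was not tested.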

Other observations

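The genes whose pattern over the 4 libraries was most like that of ELF3 were sought among 12366 genes with a symbol and a mean of at least 1 RPKM, by the distance between log2(RPKM + 0.5) values centred on each gene's mean. The nearest 5 were CITED2 (distance 0.126), BNIP3 (0.265), KLHL13 (0.353), GSE1 (0.431) and SPNS2 (0.442). KLHL13, which encodes an adaptor of a cullin ubiquitin ligase, measured 0.913 and 0.775 RPKM with TGF-β1 and 4.37 and 5.50 RPKM in controls. SPNS2, a sphingosine-1-phosphate exporter, measured 2.08 and 2.25 RPKM with TGF-β1 and 10.5 RPKM in both controls. With 4 libraries in 2 groups such a likeness mainly reflects the size of the difference between groups.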
